A study of Mus musculus with 16 samples.

Results

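The genes described here are 41 protein-coding genes, picked by names linked to DNA replication and cell division. They come from the 5205 genes that the authors listed for the livers of these mice. The names were cyclins A, B and E, Cdk1 and the Cdc25 phosphatases, the Mcm helicase genes, E2F factors, replication and nucleotide genes such as Rrm2 and Tk1, centromere and checkpoint genes (Cenp, Bub1, Birc5, Aurkb, Cdc20), mitotic kinesins and kinases, condensin genes (Ncap), Top2a, Mki67, and the histone genes of the Hist1 cluster. The same names match 152 protein-coding genes of the GENCODE vM21 mouse annotation. The 8 genes Aurkaip1, Bub1, Bub1b, Ccnb2, Cenpf, Kif20a, Mcm10 and Top2a are listed in both genotypes, 28 genes are listed in TSP1F/F livers and 21 in TSP1ΔPf4 livers. The cyclin-dependent kinase Cdk1, the cyclins Ccna2 and Ccne1, and the helicase genes Mcm3 and Mcm7 are not analysed here.

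Liver RNA came from 16 male C57BL6 mice, 4 in each of 4 groups. TSP1F/F mice (labelled WT) and TSP1ΔPf4 mice (labelled KO) were fed either an LF (low fat) diet or the AMLN diet, which is rich in fat, fructose and cholesterol, for 32 weeks. Both genotypes carry a floxed Tsp1 (Thbs1) gene, so the TSP1F/F mice are floxed controls without Cre. In TSP1ΔPf4 mice a Pf4-Cre transgene deletes the gene in megakaryocytes, so that the platelets they make are deficient in TSP1. Whole liver was measured, so fewer cells of a type and less RNA per cell cannot be told apart. The library totals ran from 17127965 to 39753019 counts, and CPM are counts scaled by these totals. Depth differed with the diet. In TSP1ΔPf4 the totals ran from 17127965 to 20700888 on LF and from 23221536 to 31363462 on AMLN. In TSP1F/F the medians were 18908941 on LF and 27661650 on AMLN, and the ranges overlapped. A shallower library catches fewer reads of a low gene. The part of depth in genes without reads on LF was not tested.

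The authors listed only genes with an unadjusted p-value under 0.05 for AMLN against LF in their own test, 2558 genes in TSP1F/F and 3399 in TSP1ΔPf4. Every listed gene was thus selected for a diet difference in these same mice, and the diet values below describe that selection. Of the 152 name-matched genes, 18.4% were listed in TSP1F/F, where 10.4% of all protein-coding genes were, and 13.8% in TSP1ΔPf4, where 13.3% were. Thbs1 was listed in TSP1F/F only, with 0.313, 1.82, 0.717 and 0.375 CPM on LF and 1.94, 3.23, 13.3 and 10.1 on AMLN. Its level in TSP1ΔPf4 liver is not analysed here, so it does not check the genotype labels. Of 10 hepatocyte markers, 3 were listed in TSP1F/F and 5 in TSP1ΔPf4, and among them Ttr had 5506 ± 978 CPM (SD, n = 4) in LF-fed TSP1F/F livers.

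Most hepatocytes of an adult liver rest outside the cell cycle and re-enter it after injury or loss of tissue. On entry, the Mcm proteins are loaded on DNA as the replicative helicase, E2F factors switch on replication genes, and later the B-type cyclins, the centromere proteins and the spindle checkpoint carry the cell through mitosis. Genes of the late phases often share promoter elements, a CHR element (cell cycle genes homology region) and CCAAT boxes bound by NF-Y. Through the CHR, the MuvB complexes hold these genes off in resting cells and switch them on in dividing ones. Genes of the early phases more often carry E2F sites.

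The promoters are shown because 35 of the 41 genes had a higher mean on AMLN in each genotype that lists them and the other 6 had a lower mean. RefSeq windows (GRCm38.p6, which is mm10) of 300 bases, from 250 before to 50 after the gene start, were matched for 32 genes, 27 of the higher and 5 of the lower ones. The sequences below belong to the called gene Mcm2, to Ccnb2 and Cenpf, which are listed as higher in both genotypes, and to Mcm10, listed as lower in both. Capitals mark the CHR and CCAAT letters on either strand, and no E2F letters were found in these windows.
Mcm2, chr6:88898731-88899030, reverse strand: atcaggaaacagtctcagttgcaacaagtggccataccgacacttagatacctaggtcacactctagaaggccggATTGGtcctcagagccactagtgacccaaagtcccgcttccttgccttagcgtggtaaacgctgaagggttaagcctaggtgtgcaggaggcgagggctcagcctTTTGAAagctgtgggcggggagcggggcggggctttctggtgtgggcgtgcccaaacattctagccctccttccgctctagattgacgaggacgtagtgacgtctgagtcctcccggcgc
Ccnb2, chr9:70421505-70421804, reverse strand: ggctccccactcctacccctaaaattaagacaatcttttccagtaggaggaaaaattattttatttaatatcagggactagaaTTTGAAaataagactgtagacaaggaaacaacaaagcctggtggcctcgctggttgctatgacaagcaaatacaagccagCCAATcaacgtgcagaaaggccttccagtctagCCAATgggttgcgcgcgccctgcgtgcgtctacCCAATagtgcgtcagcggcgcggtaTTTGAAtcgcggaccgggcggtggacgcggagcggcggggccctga
Cenpf, chr1:189688037-189688336, reverse strand: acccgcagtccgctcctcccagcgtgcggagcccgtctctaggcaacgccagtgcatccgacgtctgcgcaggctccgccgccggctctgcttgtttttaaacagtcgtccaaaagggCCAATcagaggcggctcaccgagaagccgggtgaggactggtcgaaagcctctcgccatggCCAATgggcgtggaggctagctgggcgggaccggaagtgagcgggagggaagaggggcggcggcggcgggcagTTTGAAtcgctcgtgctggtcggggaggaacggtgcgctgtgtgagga
Mcm10, chr2:5012742-5013041, reverse strand: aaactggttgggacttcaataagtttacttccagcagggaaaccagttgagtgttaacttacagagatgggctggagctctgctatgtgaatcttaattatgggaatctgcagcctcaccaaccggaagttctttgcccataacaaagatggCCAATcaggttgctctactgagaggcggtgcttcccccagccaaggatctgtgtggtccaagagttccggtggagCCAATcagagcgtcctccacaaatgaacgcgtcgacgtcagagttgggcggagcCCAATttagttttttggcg

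The windows of Ccnb2 and Cenpf hold a CHR at the gene start and CCAAT boxes just before it. In Ccnb2 the CCAAT boxes begin at −87, −54 and −21 and the CHRs at −167 and 4, with the first transcribed base counted as 0. In Cenpf the CCAAT boxes begin at −132 and −71 and the CHR at 2. Mcm2 holds a CHR at −70 and a reversed CCAAT box at −175, and Mcm10 holds CCAAT boxes at −98, −23 and 31 and no CHR.

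The CHR was searched as TTTGAA or TTCGAA, the CCAAT box as CCAAT and the E2F site as TTTCCCGC, TTTGGCGC, TTTCGCGC or TTTGCCGC, all on both strands, and E2F matches on opposite strands could overlap. Of the 27 higher genes with a window, 17 (63%) held a CHR, 23 (85.2%) a CCAAT box and 7 (25.9%) an E2F site, while the shares over the windows of 17491 protein-coding genes were 18.2%, 39.2% and 2.94%. Both a CHR and a CCAAT box were found in 15 (55.6%) of the higher genes and in 7.47% of all promoters. Among the 5 lower genes, Ncaph2 held a CHR, Cenpx and Mcm10 held a CCAAT box, and no E2F site was found. The E2F sites lay in Cdc6, E2f2, Mcm5, Mcm6, Ncapd2, Ncapg and Ncapg2. A match describes letters in a window and shows no binding. The genes were picked by name from a class that often holds these motifs, so shares above those of all promoters could be foreseen. Name-matched genes that were not listed were not compared, so the shares say nothing on the diet.

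**Figure D1:**
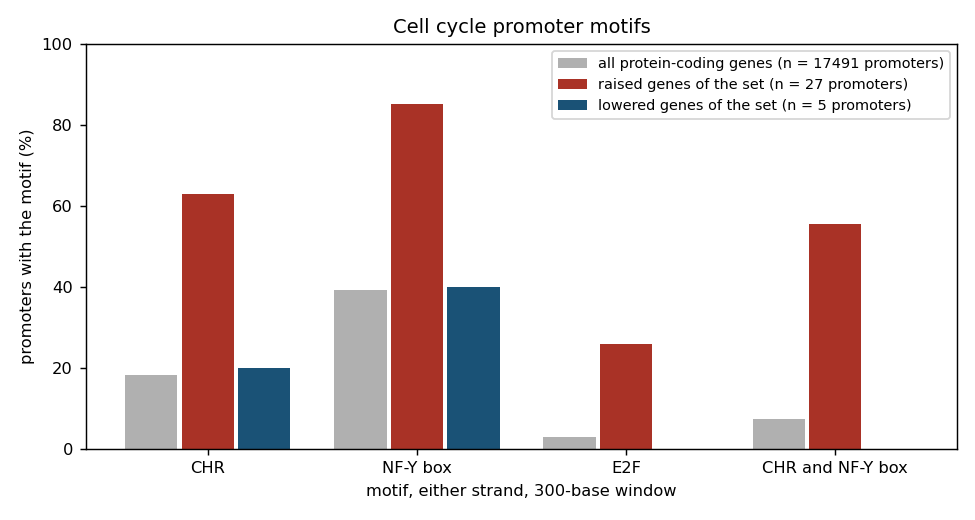
Bars give the percent of 300-base promoter windows that hold each motif on either strand, for all protein-coding genes (grey), for the 27 genes of the set with a higher AMLN mean (red) and for the 5 with a lower AMLN mean (blue). The NF-Y box is the CCAAT box. The red bars stand at 63%, 85.2%, 25.9% and 55.6%, above the grey bars of 18.2%, 39.2%, 2.94% and 7.47%. The set was picked by cell cycle gene names, so this gap could be foreseen and says nothing on the diet.

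In TSP1F/F livers, 26 of the 28 listed genes had a higher mean on AMLN than on LF, and only Mcm10 and Aurkaip1 had a lower one. Among all listed genes 67.5% had a higher mean on AMLN. The summed level of the 26 genes was 7.62, 7.56, 9.54 and 7.2 CPM in the LF-fed mice and 34.3, 41.8, 48.6 and 37.1 CPM in the AMLN-fed mice. Because the sum is over genes chosen for their direction, it shows the size of the difference and the spread between mice and carries no test. In 11 of the 28 genes all 4 LF libraries had 0 counts (9.19% of all listed genes), and in 10 genes the lowest AMLN value exceeded the highest LF value (33.9% of all listed genes).

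Mcm2 was the 1 gene that passed the test in TSP1F/F livers (2.39% of the 2096 genes tested were called higher and 0.0954% lower; with DESeq2's own size factors the calls over all genes were 285 higher and 456 lower in place of 50 and 2). DESeq2 with its own size factors called Mcm2 and 3 further genes of the 14 tested higher (Cenpf, Ccnb2 and Mki67) and Mcm10 lower. With the deposited size factors it called 6, all higher, where it called 21.4% of all genes higher and 5.49% lower. At an unadjusted p-value under 0.05 edgeR had 8 of the 14 genes and 80.2% of all genes tested. Mcm2 encodes a subunit of the replicative helicase and lies on chromosome 6 (ENSMUSG00000002870; mm10, 88883474 to 88898780, reverse strand). Mcm2 had 0.783, 0.858, 0.993 and 0.976 CPM in the LF-fed mice and 4.39, 7.59, 6.29 and 5.12 in the AMLN-fed mice. All AMLN values lay well above the LF values, and the LF-fed mice differed little among themselves. Mcm2 rose from 0.902 ± 0.0996 to 5.85 ± 1.4 CPM (SD, n = 4 each), a log2 fold change of 2.69 (SE 0.43, adjusted p = 0.0311 by the edgeR quasi-likelihood test, Benjamini-Hochberg method). With 1 mouse left out the log2 fold change of Mcm2 stayed between 2.54 and 2.80 and its adjusted p between 0.0491 and 0.112. The call held without LF replicate 3 and was lost without any of the other 7 mice.

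The other replication genes of this genotype were low. Mcm6, another helicase subunit, had 1.67, 1.34, 0.165 and 1.65 CPM on LF and 3.36, 1.35, 3.14 and 4.68 on AMLN, and the groups overlapped through AMLN replicate 2 (log2 fold change 1.37, SE 0.70, edgeR adjusted p = 0.621). Cdc6, the loader of the helicase, had 0 counts in every LF library and in AMLN replicates 1 and 2, and reached 0.906 and 1.36 CPM in replicates 3 and 4. E2f2, a transcription factor of the G1/S transition, had 0, 0.268, 0.662 and 0.413 CPM on LF and 1.6, 0.18, 2.79 and 1.42 on AMLN, again with overlap. The histone genes Hist1h4i and Hist1h4m encode histone H4 and have near-identical copies between which reads can be split, so their values are uncertain. Hist1h4i had 2.74 ± 1.74 CPM on LF and 6.06 ± 2.94 on AMLN (SD, n = 4 each), and Hist1h4m was at 0 counts in the LF libraries and between 0 and 1.75 CPM on AMLN.

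Mcm10 ran against its replication partners in level and direction. The protein helps to start the loaded helicase. Its gene lies on chromosome 2 (ENSMUSG00000026669; mm10, 4989714 to 5012791, reverse strand), and no other gene of the annotation shares its exons. Mcm10 had 96.3, 163, 320 and 111 CPM in the LF-fed and 70.2, 113, 51.1 and 96.7 CPM in the AMLN-fed TSP1F/F mice. LF replicate 3 stood highest, and the groups overlapped. The means were 172 ± 102 and 82.8 ± 27.5 CPM (SD, n = 4 each), with a log2 fold change of −1.06 (SE 0.40, edgeR adjusted p = 0.378), and without LF replicate 3 it was −0.57. DESeq2 with its own size factors, which were estimated from the listed genes alone, called Mcm10 lower (−1.39, SE 0.45, adjusted p = 0.0455). With the deposited size factors DESeq2 did not call it (−1.05, SE 0.41, adjusted p = 0.165). Per length, Mcm10 averaged 22.4 FPKM (counts scaled by library total and gene length) on LF, where Mcm2 averaged 0.13 and Mcm6 0.259 FPKM.

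**Figure D2:**
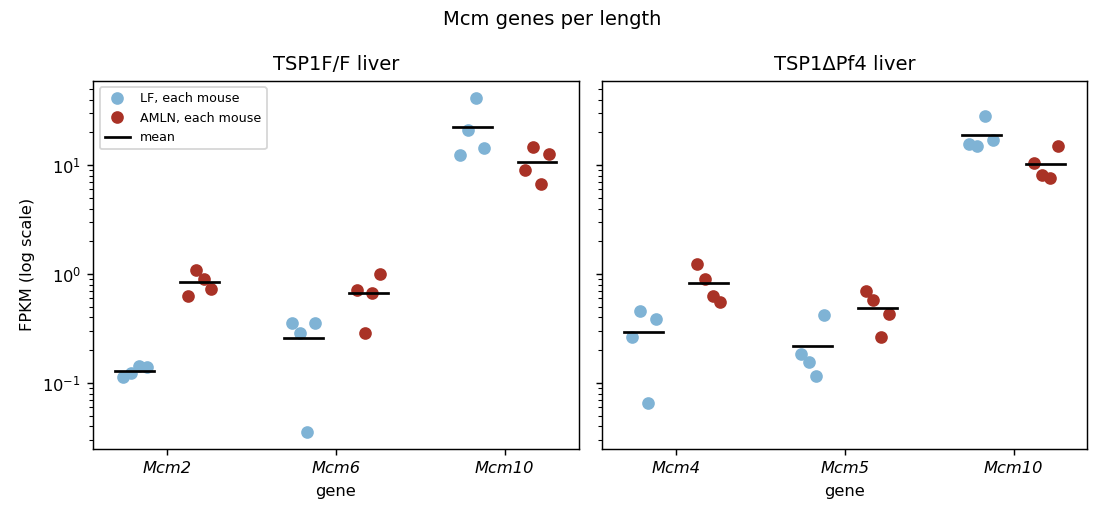
Each point is 1 mouse and each line a group mean of 4 mice. The vertical axis is FPKM on a log scale, for Mcm2, Mcm6 and Mcm10 in TSP1F/F livers (left) and Mcm4, Mcm5 and Mcm10 in TSP1ΔPf4 livers (right). Mcm10 averaged 22.4 and 18.9 FPKM on LF, while the other Mcm genes averaged under 1 FPKM on either diet.

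Among the mitotic cyclins and their regulators, Ccnb2 separated the diets in every mouse. Cyclin B2 is an activating partner of Cdk1, and its gene lies on chromosome 9 (ENSMUSG00000032218; mm10, 70407692 to 70421547, reverse strand). Ccnb2 had 0, 0.107, 0.496 and 0.075 CPM in the LF-fed TSP1F/F mice and 1.33, 1.84, 1.86 and 2.12 CPM in the AMLN-fed ones. Its log2 fold change was 3.39 (SE 0.94, edgeR adjusted p = 0.195) and ran from 2.99 to 4.76 with 1 mouse left out, the highest without LF replicate 3. Ccnb1, the gene of cyclin B1, had counts in 1 LF-fed mouse (0.331 CPM) and 0.696, 0.449, 2.41 and 0.218 CPM on AMLN, and the groups overlapped. Cdc25c, the phosphatase that activates Cdk1, was at 0 in the LF libraries and at 0.393, 0.404, 0.805 and 0 CPM on AMLN.

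Kinesin and kinase genes had very few reads in the LF-fed TSP1F/F mice. Kif23, a motor of the central spindle, had 0.209, 0, 0.331 and 0.0375 CPM on LF and 0.908, 1.71, 1.43 and 0.436 CPM on AMLN, without overlap. Kif2c, which shortens microtubules at the centromere, had 2 counts in all LF libraries together and 66 in the AMLN libraries, a ratio of CPM of 24 with a 95% exact binomial interval of 6.39 to 203 that covers counting error only. Plk1, a mitotic kinase, had 0 counts on LF and at most 0.898 CPM on AMLN. Kif20a, a motor of cytokinesis, had 0, 0, 0 and 0.225 CPM on LF and 0.575, 0.18, 1.66 and 0.436 on AMLN. None of these 4 genes had enough counts to be tested.

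The 9 centromere and spindle checkpoint genes listed in TSP1F/F livers all had a higher AMLN mean, and 6 of them, Aurkb, Bub1, Cenpe, Cenpf, Cenph and Cenpi, had 0 counts in every LF library. Cenpf, a large protein of the outer kinetochore, had 1.3, 0.539, 0.755 and 0.708 CPM on AMLN, at least 5.55-fold above the LF floor of 3 counts per library (edgeR adjusted p = 0.0758). Its gene lies on chromosome 1 (ENSMUSG00000026605; mm10, 189640606 to 189688086, reverse strand). Bub1, a checkpoint kinase, had 0.0908, 0.225, 0.78 and 0.545 CPM on AMLN, at least 2.75-fold above the floor. Aurkb, the kinase that corrects spindle attachments, had 0.182, 0.18, 0.377 and 2.72 CPM, so that its mean rests on AMLN replicate 4. The counts on AMLN summed over the 4 mice were 98 for Cenpf, 75 for Aurkb, 73 for Cenpe, 55 for Cenph, 49 for Bub1 and 28 for Cenpi.

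Birc5 (survivin), a partner of Aurkb, had 0.418, 0.268, 0.276 and 0.3 CPM on LF and 2, 1.71, 2.26 and 0.49 CPM on AMLN. All AMLN values lay above the LF values, but AMLN replicate 4 was close to them (log2 fold change 2.34, SE 0.69, edgeR adjusted p = 0.23). Bub1b, the checkpoint protein BubR1, had 0.418, 0, 0 and 0.375 CPM on LF and 0.605, 0.539, 0.503 and 3.27 on AMLN, and AMLN replicate 4 made most of that mean. Without this mouse the log2 fold change of Bub1b was 1.41, compared with 2.55 in all 8 mice (SE 1.18, edgeR adjusted p = 0.511). Cdc20, the activator of the anaphase-promoting complex, had 0, 0.643, 0 and 0.45 CPM on LF and 2.69, 3.95, 1.91 and 0.381 on AMLN, where replicate 4 fell within the LF range (log2 fold change 2.99, SE 1.16, edgeR adjusted p = 0.39). Without LF replicate 2 the log2 fold change of Cdc20 was 3.75.

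Mki67, whose protein coats mitotic chromosomes and is the common marker of cycling cells, differed widely between the AMLN-fed mice. It had 0.626, 0, 0 and 0.188 CPM on LF and 1.78, 3.01, 7.57 and 0.436 CPM on AMLN, so AMLN replicate 4 lay below the highest LF value. The log2 fold change was 3.94 (SE 1.22, edgeR adjusted p = 0.249) and ran from 3.06 without AMLN replicate 3 to 5.4 without LF replicate 1. Top2a, the topoisomerase that untangles replicated DNA, had 0, 1.34, 0 and 0.375 CPM on LF and 1.21, 1.17, 3.8 and 2.4 on AMLN. LF replicate 2 thus overlapped the AMLN mice (log2 fold change 2.31, SE 1.16, edgeR adjusted p = 0.593), and without it the log2 fold change was 3.93. Ect2, which directs the contractile ring in cytokinesis, was more even, with 0.678, 0.804, 1.16 and 0.976 CPM on LF and 1.97, 2.51, 2.67 and 3.1 on AMLN (log2 fold change 1.5, SE 0.52, edgeR adjusted p = 0.325).

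**Figure D3:**
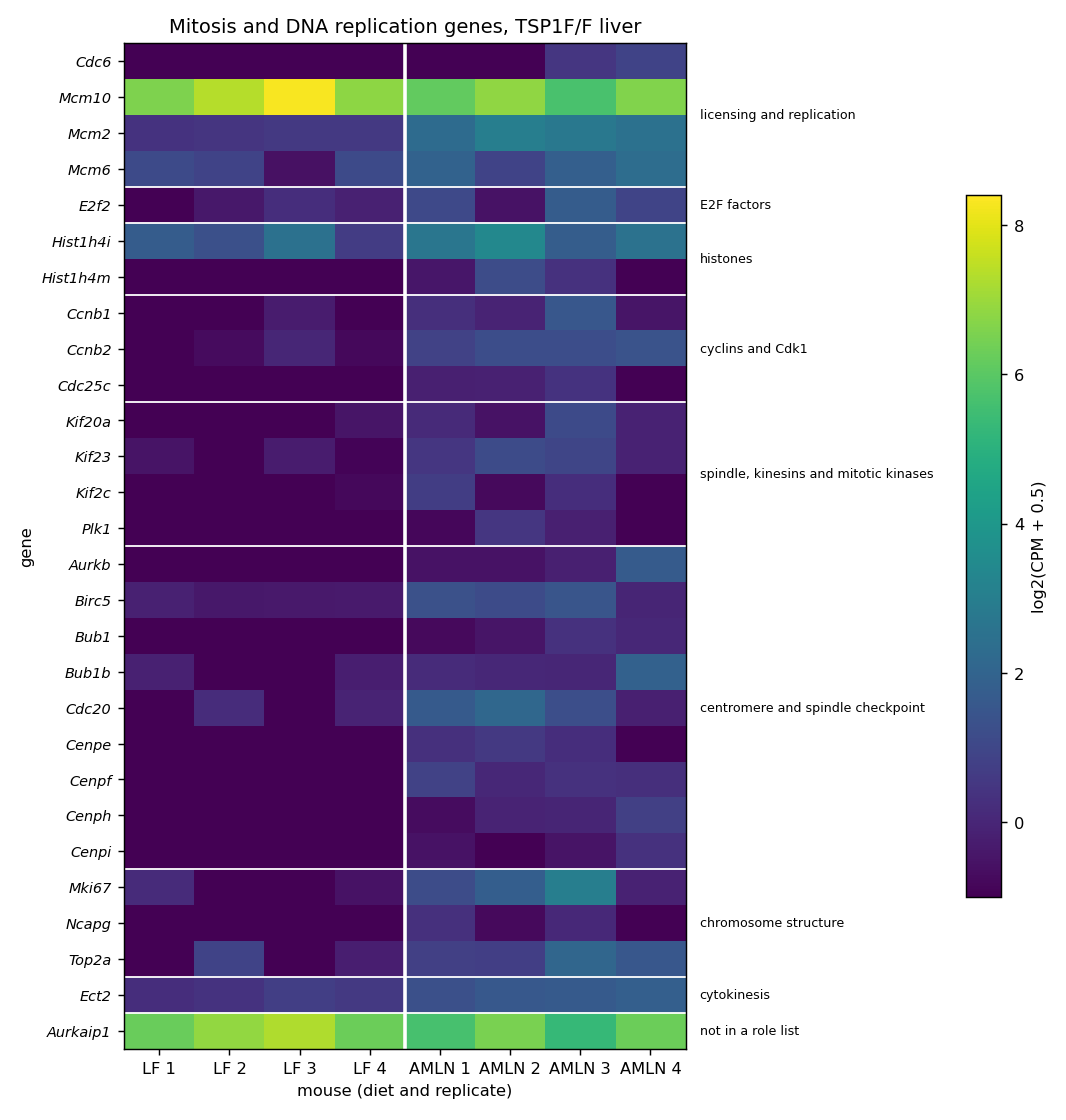
Rows are the 28 genes listed in TSP1F/F liver, grouped by role, and columns are the 8 mice. Color gives log2(CPM + 0.5), so black-violet is 0 counts. The LF columns are dark in 11 genes that have 0 counts in all 4 LF mice, and the Mcm10 and Aurkaip1 rows are bright in every mouse.

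The highest values were spread over the AMLN-fed TSP1F/F mice. Among the 26 genes with a higher AMLN mean, the highest AMLN value lay in replicate 1 for 3 genes, replicate 2 for 7, replicate 3 for 8 and replicate 4 for 8. Different genes led in different mice, as Mki67 did in replicate 3 and Aurkb and Bub1b in replicate 4. The median log2 fold change was 2.33 over the 14 genes with enough counts and 1.15 over all 2096 genes tested (1.95 and 0.78 with DESeq2's size factors). A gene at 0 on LF could pass that filter only through the AMLN mice, so these medians are a description.

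In TSP1ΔPf4 livers, 15 of the 21 listed genes had a higher mean on AMLN and 6 a lower one, where 44.2% of all listed genes had a higher mean. The summed level of the 15 genes was 4.2, 7.15, 2.63 and 5.94 CPM on LF and 18.9, 22.1, 18.1 and 12 CPM on AMLN, again over genes chosen for their direction. With edgeR's quasi-likelihood test 0 of the 14 genes with enough counts were called (1.46% of the 3089 genes tested were called higher and 1.52% lower), while 12 were at an unadjusted p-value under 0.05, as were 85.8% of the genes tested. DESeq2 called 7 of the 14 with its own size factors, 6 higher and 1 lower, and 5 with the deposited ones, 4 higher and 1 lower, where the latter called 12.9% of all genes higher and 21.8% lower. The calls over all genes were 45 higher and 47 lower with library totals, 160 and 38 under TMM, and 1010 and 366 with DESeq2's own size factors. All 4 AMLN-fed mice were above all LF-fed mice in 10 genes (21.4% of all listed genes) and below them in 2, Cenpx and Cenpp (27.3%). The median log2 fold change was 1.12 over the 14 genes and −0.54 over all genes tested, and it was 1.46 and −0.20 with DESeq2's size factors. In 4 genes, Bub1, Cdca2, Hist1h3c and Kif14, every LF library had 0 counts (2.68% of all listed genes).

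Replication genes split by level in this genotype. Mcm4, a helicase subunit, had 0.956, 1.64, 0.234 and 1.38 CPM on LF and 4.5, 3.25, 2.26 and 1.98 on AMLN, without overlap (log2 fold change 1.5, SE 0.52, edgeR adjusted p = 0.148). Mcm5, a further subunit, had 0.744, 0.628, 0.467 and 1.7 CPM on LF and 2.77, 2.3, 1.05 and 1.72 on AMLN, and LF replicate 4 reached into the AMLN range (log2 fold change 1.14, SE 0.50, edgeR adjusted p = 0.245). Rrm2, the regulated subunit of ribonucleotide reductase, had 0.637, 2.13, 1.23 and 1.64 CPM on LF and 2.3, 3.78, 3.35 and 2.71 on AMLN (log2 fold change 1.10, SE 0.41, edgeR adjusted p = 0.171). Every AMLN value of Rrm2 and Mcm4 was above every LF value. Tk1, thymidine kinase, was far more abundant and lay lower on AMLN, with 22.8, 38.3, 40.8 and 26.3 CPM on LF and 10.8, 14.2, 15.8 and 31.9 on AMLN. Its groups overlapped through AMLN replicate 4, and the log2 fold change was −0.82 (SE 0.34, edgeR adjusted p = 0.214) and −1.24 without that mouse. Mcm10 had 120, 114, 216 and 131 CPM on LF and 79.9, 63, 58.5 and 115 on AMLN (log2 fold change −0.88, SE 0.28, edgeR adjusted p = 0.129).

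Condensin genes were listed in both directions. The condensins fold chromosomes for mitosis. Ncapd2, a subunit of condensin I, had 0.797, 0.918, 0.234 and 0.584 CPM on LF and 2.03, 2.18, 2.39 and 0.56 on AMLN, where replicate 4 did not leave the LF range (log2 fold change 1.49, SE 0.55, edgeR adjusted p = 0.176). Ncapg2, a subunit of condensin II, had counts in 1 LF-fed mouse (0.435 CPM) and 1.5, 1.23, 1.43 and 0.99 CPM on AMLN, without overlap (log2 fold change 3.42, SE 0.91, edgeR adjusted p = 0.0869). Ncaph2, also of condensin II, was abundant, with 50.8, 64.6, 72.6 and 72.6 CPM on LF and 54.5, 41.6, 40 and 55.1 on AMLN. Its log2 fold change was −0.45 (SE 0.21, edgeR adjusted p = 0.266), a smaller drop than the median over all genes tested. Per length, Ncaph2 averaged 15.5 FPKM on LF, compared with 0.101 for Ncapd2 and 0.0109 for Ncapg2.

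Mitotic genes were near 0 in the LF-fed TSP1ΔPf4 mice as well. Kif20a had 0.386 CPM in LF replicate 2 and 0 counts in the other LF mice, and 1.17, 1.23, 0.765 and 0.689 CPM on AMLN (log2 fold change 3.16, SE 0.93, edgeR adjusted p = 0.105). Ccnb2 had 0, 0.338, 0.292 and 0.212 CPM on LF and 0.834, 1.77, 2.17 and 0.646 on AMLN (log2 fold change 2.65, SE 0.72, edgeR adjusted p = 0.0913). Neither gene overlapped between the diets. Prc1, which bundles the central spindle, had 3 counts on LF, all in replicate 2, and 62 on AMLN, a ratio of CPM of 14.3 with an exact binomial 95% interval of 4.68 to 71.4 that covers counting error only. Cenpf had 0, 0.193, 0 and 0.0531 CPM on LF and 0.2, 0.946, 0.893 and 0.56 on AMLN. Bub1 had 0 counts on LF and 0.2, 0.822, 0.223 and 0.474 CPM on AMLN, at least 2.69-fold above the floor. Bub1b had 0.266, 0.145, 0.0584 and 0.371 CPM on LF and 1.4, 0.535, 1.4 and 0.215 on AMLN, and Top2a had 0.797, 0.193, 0.117 and 0 CPM on LF and 0.934, 2.51, 0.701 and 0.258 on AMLN, both with overlap. Cdca2, a chromatin protein of mitotic exit, Kif14, a motor of cytokinesis, and the histone H3 gene Hist1h3c, which also has near-identical copies, reached at most 0.646, 0.535 and 0.434 CPM on AMLN.

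Cenpx and Cenpp were the centromere genes with lower AMLN values. Cenpx encodes a small histone-fold protein of the kinetochore that also works in DNA repair, and lies on chromosome 11 (ENSMUSG00000025144; mm10, 120710942 to 120713738, reverse strand). It had 47.1, 48, 85.7 and 56.1 CPM on LF and 27.2, 18.7, 20.6 and 35.7 on AMLN, without overlap. The log2 fold change of Cenpx was −1.21 (SE 0.27, edgeR adjusted p = 0.062), and it passed the threshold without AMLN replicate 4 (−1.42, edgeR adjusted p = 0.0444). Cenpp, a subunit of the inner kinetochore, was low, with 1.12, 0.966, 0.701 and 1.01 CPM on LF and 0.267, 0.329, 0 and 0.388 on AMLN, from 72 and 25 counts (log2 fold change −1.96, SE 0.71, edgeR adjusted p = 0.165).

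**Figure D4:**
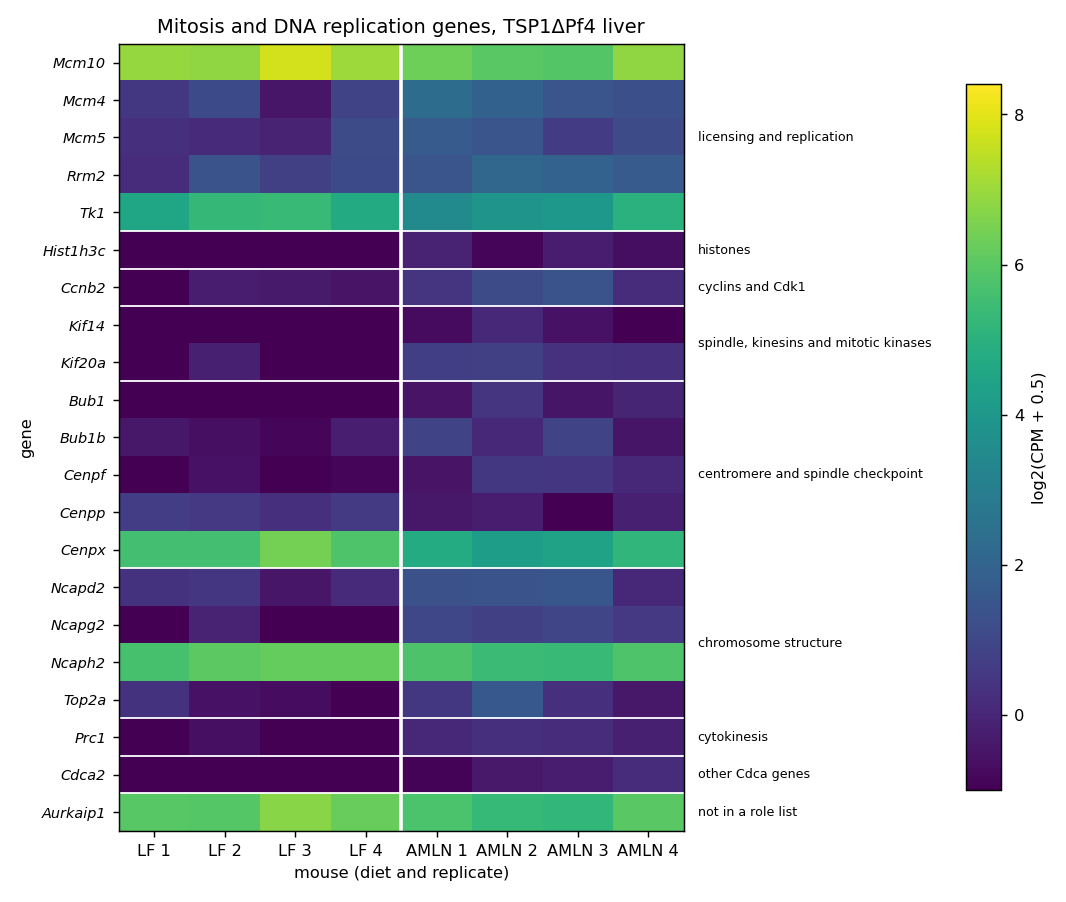
Rows are the 21 genes listed in TSP1ΔPf4 liver, grouped by role, and columns are the 8 mice, with color for log2(CPM + 0.5). The bright rows Mcm10, Tk1, Cenpx, Ncaph2 and Aurkaip1 have a lower mean on AMLN, and their highest values lie in LF 3 on the LF diet and in AMLN 4 on the AMLN diet.

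The lower-listed genes were the abundant ones. Mcm10, Aurkaip1, Cenpx, Ncaph2 and Tk1 had mean levels between 18.2 and 172 CPM on either diet, while no gene with a higher AMLN mean averaged over 6.06 CPM, and Cenpp was the low exception. Aurkaip1 was matched by its name. Its protein binds Aurora kinase A but is also a component of the mitochondrial ribosome, and it had 75.2, 116, 156 and 77.7 CPM on LF and 49.7, 90.7, 39.2 and 76.9 CPM on AMLN in TSP1F/F mice. In TSP1ΔPf4 mice it had 61.1, 60.1, 106 and 73.8 CPM on LF and 53.4, 38.6, 37.2 and 63.3 on AMLN. The groups overlapped in both genotypes. LF replicate 3 held the highest LF value of both lower genes in TSP1F/F and of 5 of the 6 in TSP1ΔPf4, and AMLN replicate 4 the highest AMLN value of all 6 in TSP1ΔPf4.

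Hepatocyte markers moved with these genes in TSP1ΔPf4 livers, where 4 of the 5 listed had a lower AMLN mean and Hnf4a a higher one. Their sum over the 5 listed markers was 29120, 30032, 38557 and 33017 CPM on LF and 19652, 15286, 17327 and 21824 on AMLN, so that LF replicate 3 and AMLN replicate 4 were highest there too. Apoa1 was the largest part of this sum, with means of 17374 CPM on LF and 8271 on AMLN. In TSP1F/F livers all 3 listed markers had a lower AMLN mean and their sum was 6831, 8672, 7168 and 9215 CPM on LF and 4887, 6173, 2913 and 4698 on AMLN, and LF replicate 3 was not the highest. Their part in the result was not tested.

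Markers of leukocytes and macrophages moved with the diet alongside the genes with a higher AMLN mean. Of 8 general leukocyte markers, 7 were listed in TSP1F/F livers, all higher on AMLN, with sums of 21.5 to 66.9 CPM on LF and 88.8 to 207 on AMLN, and 5 in TSP1ΔPf4 livers, all higher, with sums of 48.7 to 66.7 and 86.7 to 117 CPM. Of 12 macrophage and monocyte markers, 10 were listed in TSP1F/F, all higher, with sums of 108 to 544 and 625 to 2118 CPM, and 9 in TSP1ΔPf4, all higher, with sums of 83.4 to 153 and 243 to 328 CPM. Lyz2 was the largest part of these sums, with 137 ± 164 CPM on LF and 622 ± 588 on AMLN in TSP1F/F. In TSP1ΔPf4 it had 51.2 ± 24.5 and 109 ± 40.5 CPM (SD, n = 4 each). In edgeR 1 leukocyte and 5 macrophage markers were called higher in TSP1F/F, and 1 and 3 in TSP1ΔPf4. None of the listed markers was at 0 in all LF libraries. On AMLN the macrophage sum was highest in replicate 4 of both genotypes, with 2118 CPM in TSP1F/F and 328 in TSP1ΔPf4. In those mice the genes with a higher AMLN mean summed to 37.1 and 12 CPM. Their sums were highest in TSP1F/F replicate 3 (48.6 CPM) and TSP1ΔPf4 replicate 2 (22.1 CPM). The general leukocyte sum was highest in TSP1F/F replicate 4 (207 CPM) and TSP1ΔPf4 replicate 2 (117 CPM). Which cells held the cycling transcripts, and the part of these markers in the result, was not tested.

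Markers of further cell types also moved with the diet. In TSP1F/F livers the listed markers were higher on AMLN for 3 of 12 T and NK cell genes, 1 of 6 B cell genes, 6 of 8 stellate cell genes, 3 of 6 endothelial genes, 3 of 5 cholangiocyte genes and 1 of 6 neutrophil genes, while of 7 red cell precursor genes 1 was higher and 1 lower. The sums of the stellate cell genes were 22 to 49.3 CPM on LF and 112 to 257 on AMLN, and those of the T and NK cell genes 0.161 to 0.496 and 2.93 to 5.16 CPM, both without overlap. The endothelial sums were 9.93 to 26.6 and 40.5 to 46.5 CPM and the neutrophil gene ran from 0.157 to 1.07 and from 1.66 to 7.62 CPM, also without overlap, while the B cell, cholangiocyte and red cell precursor sums overlapped. Col3a1 was the largest part of the stellate cell sums on AMLN, with a mean of 96.2 CPM. In edgeR the collagen genes Col3a1 and Col1a2 and the T cell gene Cd8a were called higher. In TSP1ΔPf4 livers the listed markers were higher for 2 T and NK cell genes, 1 B cell gene, 4 stellate cell genes, 2 endothelial genes and 2 cholangiocyte genes, and lower for 1 T and NK cell gene and 1 endothelial gene. There the stellate cell sums were 18.4 to 31.2 and 27.2 to 113 CPM, the T and NK cell sums 15.6 to 59.7 and 8.51 to 20.2 CPM, the B cell gene 0 to 0.234 and 0.223 to 0.667 CPM, and the endothelial sums 38.8 to 46.9 and 46 to 59.3 CPM, all with overlap, while the cholangiocyte sums of 2.16 to 3.29 and 3.87 to 9.12 CPM did not overlap. The T and NK cell sum was nearly all Zap70, the 1 lower gene, with a mean of 37.1 CPM on LF and 13 on AMLN. The 2 higher genes were low, with means of 0.106 and 1.16 CPM for Cd8a and 0.154 and 0.671 for Trac. No neutrophil or red cell precursor marker was listed in TSP1ΔPf4 livers. The part of these markers in the result was not tested.

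Other cell cycle genes outside the 41 were also listed in both directions. Of 86 further genes, 17 were listed in TSP1F/F livers, 16 with a higher and 1 with a lower AMLN mean, and 19 in TSP1ΔPf4 livers, 14 higher and 5 lower. In edgeR 0 were called in either genotype, 5 of 9 tested in TSP1F/F and 11 of 11 in TSP1ΔPf4 were at an unadjusted p-value under 0.05, and DESeq2 with the deposited size factors called 1 higher in TSP1F/F and 3 higher and 3 lower in TSP1ΔPf4. With its own size factors these were 1 higher and 1 lower, and 6 higher and 1 lower. Foxm1, a transcription factor that drives mitotic genes, had 0 counts in every LF library of both genotypes and averaged 0.657 ± 0.387 CPM on AMLN in TSP1F/F and 0.41 ± 0.365 in TSP1ΔPf4 mice (SD, n = 4 each). Ccnd1, cyclin D1 of the early G1 phase, averaged 4.48 ± 2.88 and 16.1 ± 14.9 CPM on LF and AMLN in TSP1F/F and 5.32 ± 2.87 and 13.7 ± 6.02 CPM in TSP1ΔPf4 livers. The 5 genes with a lower AMLN mean in TSP1ΔPf4 were Spc24, Cks2, Gins1, Tyms and Hmgb2, all above 2 CPM on both diets, and Lin54, a subunit of MuvB, was the 1 lower gene in TSP1F/F. Level and direction did not go together here, since Tubb5, a tubulin gene, had a higher AMLN mean and averaged 24.8 ± 4.49 and 38.1 ± 10 CPM on LF and AMLN in TSP1F/F livers, above Lin54 with 9.7 ± 4.68 and 4.84 ± 1.34 CPM. The summed level of the 17 genes in TSP1F/F was 39.1 to 51.6 CPM on LF and 62 to 149 on AMLN, without overlap. That of the 19 genes in TSP1ΔPf4 was 84.9 to 103 CPM on LF and 98 to 106 on AMLN, with overlap.

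Genes that slow or stop the cycle were listed as well. Of 23 such genes, 4 were listed in TSP1F/F (3 higher, 1 lower) and 5 in TSP1ΔPf4 (4 higher, 1 lower). In edgeR 0 were called, 4 of 4 and 3 of 5 were at an unadjusted p-value under 0.05, and DESeq2 with the deposited size factors called 1 higher in each genotype. With its own size factors it called 1 lower in TSP1F/F and 3 higher in TSP1ΔPf4. Cdkn1a, the p21 inhibitor, averaged 1.46 ± 1.06 CPM on LF and 10.5 ± 7.37 on AMLN in TSP1ΔPf4 livers (log2 fold change 2.84, SE 0.63, edgeR adjusted p = 0.062). Btg2, an antiproliferative gene, averaged 10.5 ± 8.63 and 46.3 ± 35.4 CPM in TSP1F/F livers (log2 fold change 2.14, SE 0.66, edgeR adjusted p = 0.249).

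The genotypes were compared on the same diet for the 8 genes listed in both, which asks whether loss of platelet thrombospondin 1 goes with another level of these genes in the fatty liver. On AMLN the groups overlapped for all 8 genes (over the 752 shared genes 12.1% lay lower without overlap in TSP1ΔPf4 and 2.53% higher). In edgeR 0 of the 8 were called and 0 were at an unadjusted p-value under 0.05 (25.2% of all genes were), and DESeq2 called 0, while 8.46% of the 733 genes tested were called lower in TSP1ΔPf4 and 0.546% higher. Scaling moved the median log2 fold change of all genes tested. It was −0.38 with library totals, where 62 genes were called lower and 4 higher, −0.10 under TMM (37 and 11) and −0.03 in DESeq2 (56 and 17). The median of the 8 genes was −0.38, −0.07 and −0.04 in the same order, close to that of all genes.

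Top2a averaged 2.14 ± 1.24 CPM in AMLN-fed TSP1F/F livers and 1.1 ± 0.979 CPM in AMLN-fed TSP1ΔPf4 livers (SD, n = 4 each), a log2 fold change of −0.97 (SE 0.69, edgeR adjusted p = 0.425). With 1 mouse left out it ran from −1.75 to −0.53, the latter without TSP1F/F AMLN replicate 3. Ccnb2 had 1.79 ± 0.332 and 1.35 ± 0.732 CPM (log2 fold change −0.40, SE 0.54), and Cenpf 0.826 ± 0.33 and 0.65 ± 0.345 CPM (−0.35, SE 0.67). Kif20a had 0.713 ± 0.653 and 0.964 ± 0.276 CPM, with a log2 fold change of 0.40 (SE 0.70) that ran from 0.09 to 1.25, the latter also without TSP1F/F AMLN replicate 3. Bub1 (0.04, SE 0.86) and Bub1b (−0.43, SE 0.81) were the least precise. The SE of these low genes, from 0.54 to 0.86, leaves a difference of 2-fold between the genotypes within 2 SE of 0. Mcm10 was measured with an SE of 0.32, at 82.8 ± 27.5 and 79 ± 25.5 CPM, and its log2 fold change was −0.07, changing sign to 0.21 under TMM and 0.25 in DESeq2. Aurkaip1 had −0.41 (SE 0.32).

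On LF, Mcm10 and Aurkaip1 were the genes that passed the filter on low counts when the 8 LF-fed mice were fitted alone. With all 16 mice in 1 fit all 8 genes were tested, 0 were called and 1 was at an unadjusted p-value under 0.05, and without the filter 7 were tested and 0 called. Mcm10 had a log2 fold change of −0.25 (SE 0.39, edgeR adjusted p = 0.832) and Aurkaip1 −0.50 (SE 0.31, edgeR adjusted p = 0.676). In edgeR 0 of the 2 were called and 0 were at an unadjusted p-value under 0.05, while 0% of the 640 genes tested were called and 6.88% were at such a p-value. DESeq2 called 0. The LF groups of both genes overlapped (1.33% of the 752 shared genes lay lower without overlap and 3.19% higher). The difference of the diet response between the genotypes, tested by an interaction term, gave 0 of 8 calls (1 at an unadjusted p-value under 0.05, with 15% of all genes, and 0 called by DESeq2), with 0.409% of the 734 genes called lower and 0% higher. Over all genes the interaction gave 3 calls lower and 0 higher with library totals, 7 and 8 under TMM and 32 and 12 in DESeq2. The diet comparisons of the genotypes do not share mice, but a gene enters this comparison only if it was listed for diet in both.

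**Figure D5:**
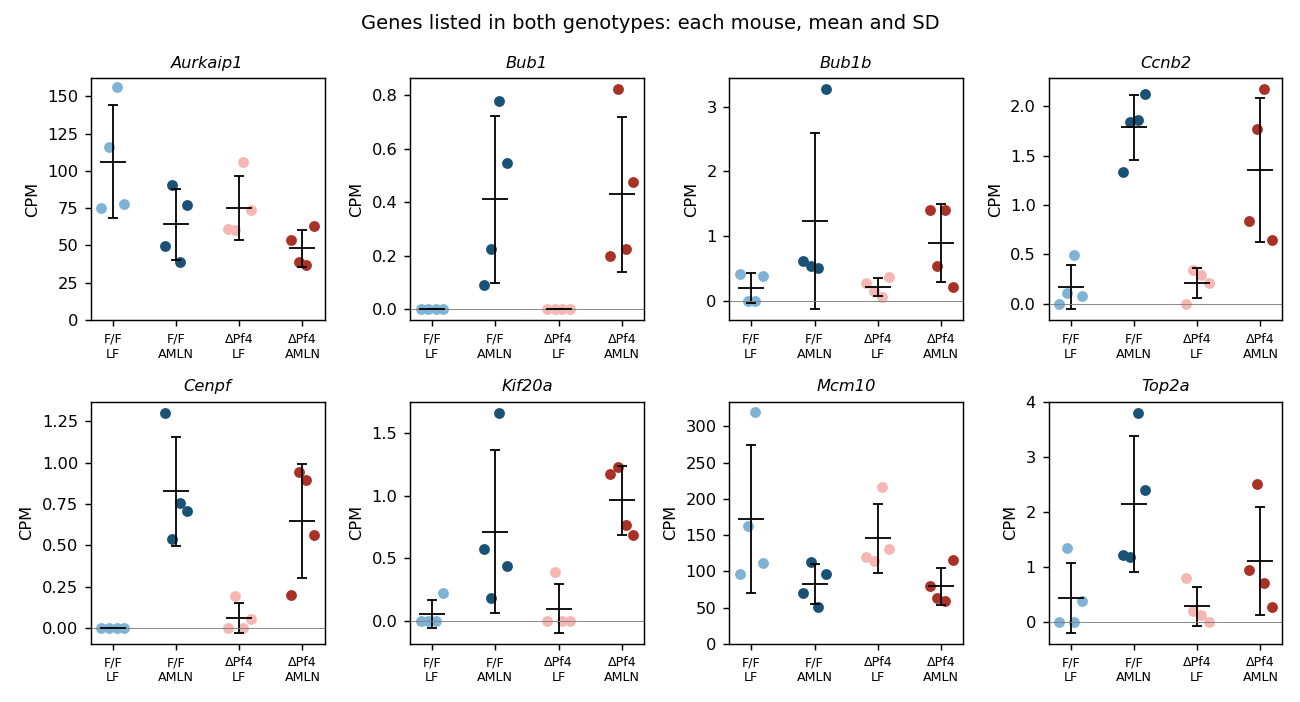
Each panel is 1 gene listed in both genotypes, with CPM from 0 on a linear axis. Points are the mice of the 4 groups (F/F is TSP1F/F, ΔPf4 is TSP1ΔPf4), and bars are the mean and SD of 4 mice. On AMLN the 2 genotypes overlap in all 8 panels, and Aurkaip1 and Mcm10 are the panels where LF lies above AMLN.

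Several of these genes share exonic bases with a gene on the opposite strand, and the strand setting of the counting is not given in the sources used here, so reads of the partners cannot be told apart. The shared part was 29.3% of the exonic bases of Kif20a (with Cdc23), 19.7% of Ncaph2 (with Sco2) and a further 12.7% (with Tymp), 13.4% of Ncapg (with Lcorl), 12.7% of Cdc25c (with Gm3550), 12.3% of Cenpp (with Ippk) and 11.1% of Prc1 (with Rccd1). It was 7.09% of Plk1, 2.84% of Cdc20 and 1.6% of Tk1. These shares are of exons in GENCODE vM21, where Kif20a and Cdc25c have other coordinates than in the deposited data. For those genes the shared part of the counted bases is not known.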

How the data were processed

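RNA was extracted from mouse liver with a column kit and libraries were made by a sequencing company. The paper names alignment with STAR to mm10 and the submitters' processing notes name HISAT2, mm10 and DESeq2, so the aligner is unsettled. The counting program and the annotation release are not given in the sources used here. The deposited tables, 1 per genotype, hold whole-number counts per gene made by the authors, a size-factor-scaled signal (the same counts divided by 1 factor per library by the authors), FPKM that the authors computed from counts and gene length, and the authors' fold changes and p-values for diet. The authors' fold changes were not used, and the authors' p-values served only to see which genes had been selected and over how many genes they were adjusted (16784 in TSP1F/F and 13927 in TSP1ΔPf4). The labels tied each of the 48 columns of single-mouse values to its group.

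The genes, role lists, marker lists and tests were chosen with earlier results of these data known. Every gene matching the names could be named. Values in every mouse were given for genes called, for genes listed in both genotypes, for the 8 tested genes with the largest log2 fold change per direction and table, and for common proliferation genes (Mki67, Top2a, Ccnb1, Mcm2 to Mcm7, Rrm2, Birc5). The other genes given with values, Foxm1, Ccnd1, Lin54, Tubb5, Cdkn1a, Btg2 and Ttr among them, were chosen after their values were seen.

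Because the tables hold selected genes, library totals were computed from the counts, gene lengths and FPKM, and CPM are counts scaled by these totals. Counts were tested with the quasi-likelihood test of edgeR 4.0.16 in R 4.3.3 after filterByExpr, with library totals as the scaling. Calls required a log2 fold change beyond 0.25 in either direction with an adjusted p-value below 0.05. The edgeR test gives no SE. The SE shown with edgeR values is the absolute log2 fold change divided by the square root of the F statistic, an approximation. The Benjamini-Hochberg adjustment covered as many genes as the authors' own for diet, and the genes tested for genotype and interaction. Since the listed genes were selected, so is the pooled estimate of spread behind each p-value. The labels do not say more of the mice than their group, so p-values measure the spread between these 4 livers per group. When all LF libraries were at 0, a fold is a bound against 3 counts per library, and with 1 to 3 LF counts it has an exact 95% interval. The bound divides the mean AMLN CPM by the mean CPM of 3 counts per LF library, and carries no error of the AMLN mean. The interval pools reads over mice and covers counting error only. The test was checked on simulated counts in which 200 genes were changed 8-fold up or down. For diet it called 148 of them in TSP1F/F and 198 in TSP1ΔPf4, with 0 and 3 false calls. Between genotypes it called 195 on AMLN and 188 on LF, with 5 and 7 false calls. For the interaction it called 171, with 8 false calls. DESeq2 1.42.0, TMM, no filter, a replicate block, other adjustments, all 16 mice in 1 fit and each mouse left out were alternatives, and DESeq2 with the deposited size factors was added after the data were seen. Coordinates are those in the deposited tables, and 39 of the 41 genes have the same ones in GENCODE vM21. Proteins were not used here.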

Additional observations from a re-analysis of the deposited data

Results flagged for a closer look

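A mouse stood apart from the other 3 of its group in 4 of 55 groups of 4 mice checked (7.27%). The measure was the gap to the nearest mouse divided by the range of the group. Its nominal rate of about 5% assumes normal values and does not hold for low counts. A mouse with counts beside 3 at 0 is always flagged. Bub1b reached 3.27 CPM in TSP1F/F AMLN replicate 4, with the other AMLN-fed mice between 0.503 and 0.605 CPM. Mcm10 reached 216 CPM in TSP1ΔPf4 LF replicate 3, with 114 to 131 CPM in the others. Kif20a and Ncapg2 had 0.386 and 0.435 CPM in TSP1ΔPf4 LF replicate 2, from 8 and 9 counts, with 0 counts in the other LF-fed mice. In TSP1ΔPf4, this mouse held the highest LF value of 8 of the 15 genes with a higher AMLN mean. Without it the log2 fold change for diet was 7.5 for Kif20a and 7.92 for Ncapg2, values that then rest on a group at 0 and depend on the prior count.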

How the results depend on the processing

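The number of genes called for diet depended on the tool and the adjustment. In TSP1F/F livers 1 gene was called, compared with 5 with DESeq2 and its own size factors (4 higher, and Mcm10 lower), 6 with the deposited ones, 8 when the adjustment covered only the listed genes tested, and 0 to 1 with each mouse left out. In TSP1ΔPf4 livers 0 were called, compared with 7, 5 and 11 in these settings and 0 to 1 with each mouse left out. Adjusting over only the listed genes tested raised the calls over all genes as well. It called 807 higher and 317 lower of 2096 genes in TSP1F/F, and 825 higher and 1362 lower of 3089 in TSP1ΔPf4. The counts of 8 and 11 therefore do not set these genes apart. DESeq2 with the deposited size factors called Mcm2, Cenpf, Ccnb2, Mki67, Birc5 and Ect2 higher in TSP1F/F, and Ncapg2, Ccnb2, Kif20a and Mcm4 higher and Cenpx lower in TSP1ΔPf4. The causes were not tested. TMM and no filter left the counts of called genes as they were in both genotypes. Each gene tested for diet kept its direction in every alternative run. Between genotypes 0 genes were called in every alternative, and the direction of the low log2 fold changes was unstable. On AMLN, Mcm10 moved from −0.07 to 0.21 with TMM and 0.25 with DESeq2, and with 1 mouse left out it ran from −0.30 to 0.12, Bub1 from −0.47 to 0.62 and Bub1b from −0.73 to 0.70. On LF, Mcm10 ran from −0.50 to 0.24.

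With the replicate number as a block, 0 genes were called in TSP1F/F and 0 in each other comparison. The numbers were not taken as pairs. The deviations of same-numbered mice correlated between −0.36 and 0.29 for diet in TSP1F/F, −0.47 and 0.28 in TSP1ΔPf4, 0.09 and 0.40 between genotypes on AMLN and −0.05 and 0.48 on LF, and 2, 0, 6 and 5 of 8 mice correlated best with their own number. Depth limits the low genes, many of which rest on fewer than 100 counts over 4 mice.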
